A study of Homo sapiens with 6 samples.

Results

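Host genes of microRNAs (miRNAs) and of small nucleolar RNAs (snoRNAs) are transcription units that carry the small RNA in an exon or an intron. Members were chosen by name alone, as symbols that begin with MIR and end in HG (miRNA host genes) and symbols made of SNHG and a number (snoRNA host genes). Only the entry on the primary chromosome was used. This gave 103 of 41497 named entries, of which 75 were miRNA host genes and 28 were snoRNA host genes. The name rule itself used no measured value, but it was set with earlier results of these data known.

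The libraries hold poly(A) RNA of HK-2, an immortalised human line from the proximal tubule of the kidney, labelled as WT genotype. There were 3 control libraries from untreated cells and 3 libraries from cells given TGF-β1, a profibrotic cytokine, all at 24 h. The labels give DMEM-F12 with fetal bovine serum as the growth medium. The study's methods put TGF-β treatment in serum-free medium and do not say whether the untreated cells were also without serum, so an effect of TGF-β1 and one of serum cannot be told apart. The same methods name a TGF-β dose for treatment experiments. The labels and the study's account of the sequencing name no dose for these libraries. HK-2 is 1 line, and the labels do not say whether libraries came from separate cultures, so p-values measure the spread between these libraries, which may be technical. Total counts ranged from 21.9 to 26.9 M per library. Across genes, log2 levels of TGF-β1 replicate 1 correlated with the other TGF-β1 libraries at 0.989, and these with each other at 0.991 (genes are not independent replicates).

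A miRNA is cut from its host transcript by the Microprocessor, exported, diced and loaded into Argonaute, where bases 2 to 8 of the mature strand (the seed) pair with target mRNAs. When the hairpin lies in an exon, the cut destroys the spliced host, while an intronic hairpin leaves the host exons intact. Most human snoRNAs are released from introns after splicing. Box C/D snoRNAs guide 2'-O-methylation and box H/ACA snoRNAs guide pseudouridylation of ribosomal and spliceosomal RNA. Spliced SNHG transcripts are mostly noncoding, many begin with a terminal oligopyrimidine (TOP) tract, and many are cleared by nonsense-mediated decay. Poly(A) libraries measure the host transcript, and the mature small RNA itself was not measured here.

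The mature miRNAs encoded by the host genes that changed are shown first, because they are the products the hosts are named for. All 37 miRNA entries inside the tested miRNA host genes were found in RefSeq (GRCh38.p14), with 63 distinct mature sequences and 54 distinct seeds. Sequences are written 5′ to 3′ with the seed in capitals. Lines without a remark belong to hosts that were higher after TGF-β1 by at least 0.5 on the log2 scale.
hsa-miR-31-5p (MIR31HG): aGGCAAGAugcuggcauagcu
hsa-miR-100-5p (MIR100HG): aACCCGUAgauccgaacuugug
hsa-miR-125b-5p (MIR100HG): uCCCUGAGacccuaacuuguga
hsa-let-7a-5p (MIR100HG): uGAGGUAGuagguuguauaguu
hsa-miR-503-5p (MIR503HG): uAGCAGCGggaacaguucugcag
hsa-miR-1915-3p (MIR1915HG): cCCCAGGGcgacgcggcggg
hsa-miR-4435 (MIR4435-2HG): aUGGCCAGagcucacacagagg
hsa-miR-193b-3p (MIR193BHG): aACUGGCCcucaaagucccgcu
hsa-miR-365a-3p (MIR193BHG): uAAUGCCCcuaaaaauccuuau
hsa-miR-181a-5p (MIR181A2HG): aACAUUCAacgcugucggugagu
hsa-miR-181b-5p (MIR181A2HG): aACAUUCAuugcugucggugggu
hsa-miR-34a-5p (MIR34AHG, lower): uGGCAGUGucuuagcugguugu
hsa-miR-3936 (MIR3936HG, lower): uAAGGGGUguauggcagaugca
hsa-miR-221-3p (MIR222HG, lower): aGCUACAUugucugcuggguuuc
hsa-miR-222-3p (MIR222HG, lower): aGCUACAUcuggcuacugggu

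Within a host, miR-181a and miR-181b shared the seed ACAUUCA, and miR-221 and miR-222 shared GCUACAU. The seed GAGGUAG of the let-7 family was held by 3 tested hosts with different values: MIR100HG (called higher), MIRLET7BHG and MIR4458HG (both not called). The other members of this seed group are shown for comparison, with the polycistronic MIR17HG below them.
hsa-let-7b-5p (MIRLET7BHG): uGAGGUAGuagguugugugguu
hsa-miR-4458 (MIR4458HG): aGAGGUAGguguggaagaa
hsa-miR-17-5p (MIR17HG): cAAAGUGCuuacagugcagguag
hsa-miR-20a-5p (MIR17HG): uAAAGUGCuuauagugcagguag
hsa-miR-19a-3p (MIR17HG): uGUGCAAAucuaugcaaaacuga
hsa-miR-19b-3p (MIR17HG): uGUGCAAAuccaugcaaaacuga

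Groups were compared across all genes with the edgeR quasi-likelihood test, and a gene was called when its adjusted p (Benjamini-Hochberg over 14860 genes) was under 0.05. The count filter was passed by 20 miRNA host genes and 23 snoRNA host genes. Of the 20 tested miRNA host genes, 8 were called higher after TGF-β1 and 3 lower, which is 55.0% against 44.3% of all genes tested (22.2% higher and 22.1% lower). Of the 23 tested snoRNA host genes, 7 were called higher and 1 lower, which is 34.8% against the same 44.3%. The calls of miRNA hosts reached from -1.52 to 2.60 on the log2 scale. All 8 calls of snoRNA hosts were under 0.5 in size.

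The balance of directions over all genes depended on scaling. With TMM scaling, 3294 genes were called higher and 3288 lower. Scaling by total counts alone moved the all-gene median by -0.11 (log2), and 2134 genes were then called higher and 4590 lower. The median log2 fold change was 0.18 for tested miRNA hosts and 0.12 for tested snoRNA hosts, beside 0.01 for all genes. With total counts only these were 0.07, 0.01 and -0.10.

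**Figure D1:**
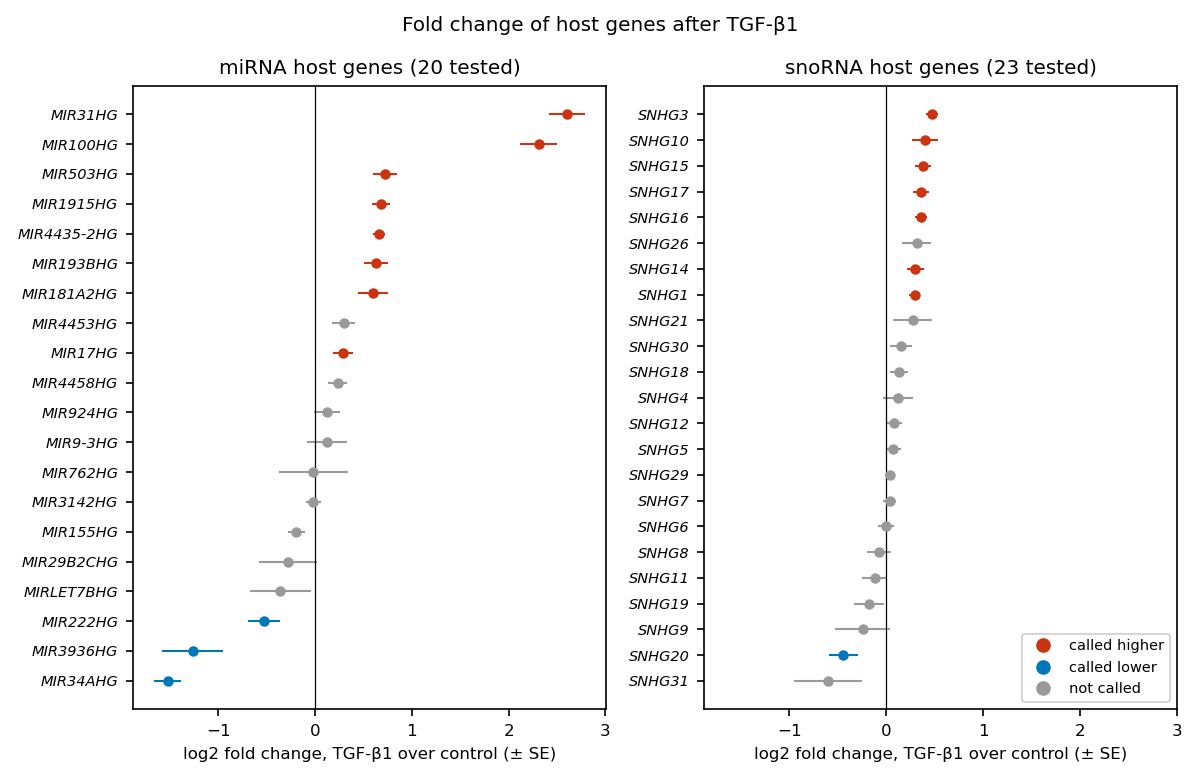
Log2 fold change (TGF-β1 over control, x axis) with its standard error for the 20 miRNA host genes (left) and 23 snoRNA host genes (right) that passed the count filter. Red points were called higher, blue points lower and grey points were not called. MIR31HG (2.60) and MIR100HG (2.31) stand at the top on the left, MIR34AHG (-1.52) and MIR3936HG (-1.27) at the bottom, and no point on the right lies beyond 0.60 in size.

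The largest rise among the members that passed the count filter was that of MIR31HG (gene-MIR31HG, hg38 chr9:21454268-21559798, minus strand), a long noncoding RNA with MIR31 in an intron. Its level was 1.02, 0.736 and 0.724 CPM in control libraries 1 to 3 and 5.45, 4.80 and 4.82 CPM in TGF-β1 libraries 1 to 3. CPM is the read count on a fixed library total after TMM scaling. All TGF-β1 libraries lay above all control libraries. On the log2 scale the difference was 2.60 ± 0.19 (SE, with an adjusted p of 1.02e-06 by edgeR).

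MIR100HG (gene-MIR100HG, chr11:122028329-122422871, minus strand) carries MIR100, MIRLET7A2, MIR125B1 and MIR10526, all in introns. It was at 1.28, 1.06 and 0.980 CPM in control and at 6.68, 4.88 and 4.97 CPM after TGF-β1, and the groups did not overlap. The fitted log2 fold change came to 2.31 ± 0.19 (SE, with an adjusted p of 3.09e-06 by edgeR). Both genes were low in control cells, with 58 reads for MIR31HG and 78 reads for MIR100HG over the 3 control libraries.

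MIR503HG (gene-MIR503HG, chrX:134543377-134546630, minus strand), whose intron holds MIR503, rose from 4.98 ± 0.13 to 8.21 ± 1.06 CPM (SD, n = 3). Its libraries were at 4.96, 5.11 and 4.86 CPM in control and at 8.72, 6.99 and 8.93 CPM after TGF-β1. The change was 0.72 ± 0.12 on the log2 scale (SE, with an adjusted p of 0.000803 by edgeR).

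MIR1915HG (gene-MIR1915HG, chr10:21492658-21497260, minus strand) was at 6.69, 6.499 and 6.605 CPM in control and at 10.5, 11.0 and 10.2 CPM after TGF-β1. The control libraries differed by less than 0.2 CPM from each other. In the fit the log2 fold change was 0.68 ± 0.09 (SE, with an adjusted p of 0.000142 by edgeR).

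MIR193BHG (gene-MIR193BHG, chr16:14301381-14331062, plus strand) carries MIR193B and MIR365A in introns. Its libraries were at 4.21, 4.74 and 4.39 CPM in control and at 7.11, 6.25 and 7.35 CPM after TGF-β1, a rise of 0.63 ± 0.12 on the log2 scale (SE, with an adjusted p of 0.00177 by edgeR). MIR181A2HG (gene-MIR181A2HG, chr9:124658436-124698628, plus strand), host of MIR181A2 and MIR181B2, was at 2.92, 3.60 and 3.03 CPM in control and at 5.49, 4.76 and 4.20 CPM after TGF-β1. This gave a log2 fold change of 0.60 ± 0.15 (SE, with an adjusted p of 0.00890 by edgeR). For both genes every TGF-β1 library lay above every control library.

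MIR4435-2HG (gene-MIR4435-2HG, chr2:111195866-111495161, minus strand) was among the 3 miRNA hosts with the highest level per length, at 24.7, 24.1 and 26.0 TPM in control and 33.2, 38.2 and 37.5 TPM after TGF-β1. It rose from 42.4, 40.8 and 43.1 CPM in control to 62.9, 68.5 and 68.0 CPM after TGF-β1, a log2 fold change of 0.66 ± 0.06 (SE, with an adjusted p of 6.39e-06 by edgeR). It has a near-identical copy on the same chromosome, CYTOR (chr2:87455427-87521518), which also rose, from 23.004 ± 2.03 to 34.7 ± 2.42 CPM (SD, n = 3). CYTOR had a log2 fold change of 0.59 ± 0.08 (SE). The split of reads between the copies is uncertain.

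MIR17HG (gene-MIR17HG, chr13:91347820-91354575, plus strand) carries 6 miRNAs of the miR-17-92 cluster in its exons. It was at 7.84, 7.11 and 8.44 CPM in control and at 8.99, 9.64 and 9.93 CPM after TGF-β1. It changed by 0.29 ± 0.10 on the log2 scale (SE, with an adjusted p of 0.0406 by edgeR). The call was lost when control replicate 1 (0.29) or 2 (0.23) or TGF-β1 replicate 2 (0.27) or 3 (0.25) was left out, with DESeq2 (0.28), with total counts only (0.18), with every entry that had a count (0.30) and with a mean of at least 50 counts (0.26).

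**Figure D2:**
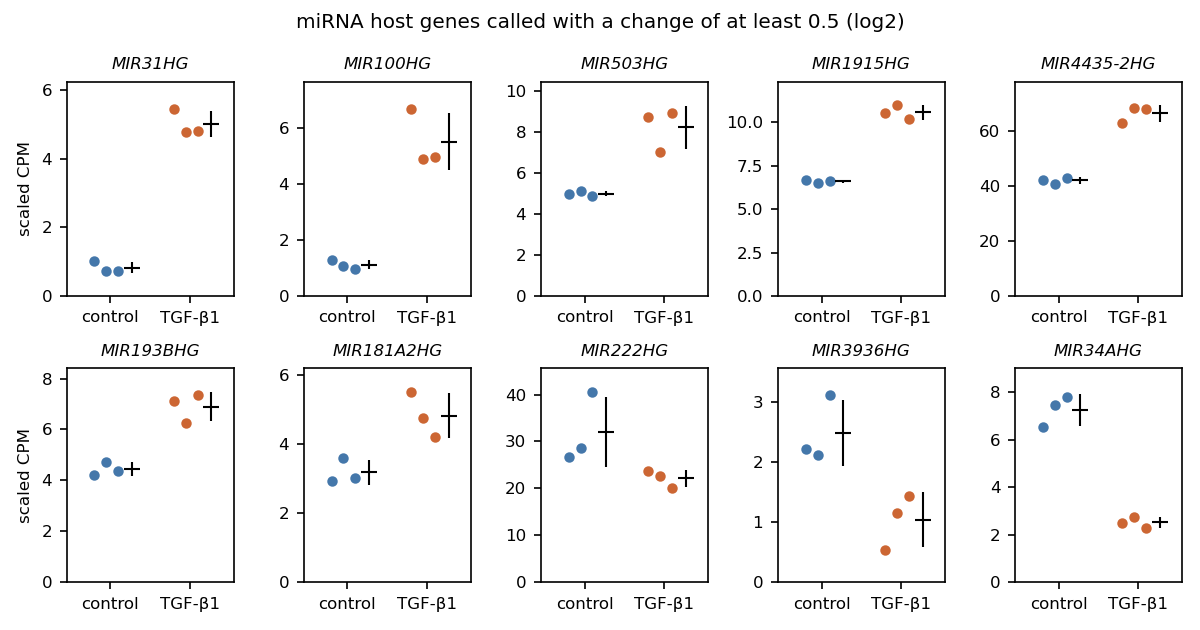
Level in each library (CPM after TMM scaling, y axis from 0) of the 10 miRNA host genes called with a log2 fold change of at least 0.5 in size. Blue points are control libraries, orange points are TGF-β1 libraries, and the black bar is the mean with its SD (n = 3). In every panel the 3 orange points lie on 1 side of the 3 blue points, and the groups come nearest in ratio for MIR222HG, at 23.7 and 26.7 CPM.

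Among the miRNA hosts that fell, MIR34AHG (gene-MIR34AHG, chr1:9148011-9182338, minus strand) had the largest change. It carries MIR34A, a well known target of p53, in an exon. It was at 6.51, 7.44 and 7.80 CPM in control and at 2.50, 2.77 and 2.29 CPM after TGF-β1. On the log2 scale the difference was -1.52 ± 0.14 (SE, with an adjusted p of 6.77e-06 by edgeR).

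MIR3936HG (gene-MIR3936HG, chr5:132311276-132369916, minus strand) was at 2.22, 2.13 and 3.11 CPM in control and at 0.538, 1.158 and 1.43 CPM after TGF-β1. The groups did not overlap, and the log2 fold change was -1.27 ± 0.32 (SE, with an adjusted p of 0.00836 by edgeR). On the opposite strand 13.0% of its exon bases overlap SLC22A4 and 4.05% overlap SLC22A5, which encode organic cation and carnitine transporters. Both of these also fell, with log2 fold changes of -0.55 ± 0.08 and -0.75 ± 0.09 (SE). The strand setting of the counting is not given in the sources used here, so reads of the genes cannot be told apart.

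MIR222HG (gene-MIR222HG, chrX:45745214-45770267, minus strand) carries MIR221 and MIR222 in its exons. Its libraries were at 26.7, 28.7 and 40.5 CPM in control and at 23.7, 22.7 and 20.2 CPM after TGF-β1, with control replicate 3 far above the other two. The fitted log2 fold change came to -0.52 ± 0.16 (SE, with an adjusted p of 0.0393 by edgeR). The call was lost without TGF-β1 replicate 1 (-0.59), 2 (-0.54) or 3 (-0.47), and in a fit of every entry with a count (-0.51). A replicate block also lost it (-0.50). The call was kept without any single control library.

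The other 9 tested miRNA hosts were not called. MIR3142HG, host of MIR146A, and MIR155HG, host of MIR155, both tied to inflammatory signalling, had the highest TPM of the class. TPM is a level per length on a fixed total, as deposited. MIR3142HG was at 53.3, 51.3 and 63.5 TPM in control and at 46.8, 53.2 and 52.9 TPM after TGF-β1, and the groups overlapped. Its log2 fold change of counts was -0.02 ± 0.08 (SE). MIR155HG was at 35.4, 37.7 and 36.4 TPM in control and at 31.9, 27.4 and 28.7 TPM after TGF-β1, with a log2 fold change of counts of -0.19 ± 0.09 (SE, with an adjusted p of 0.0984 by edgeR). It was called lower without TGF-β1 replicate 1 (-0.30, adjusted p 0.00664) and with total counts only (-0.30).

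Of the others, MIR4453HG had a log2 fold change of 0.30 ± 0.12 (SE) and MIR4458HG one of 0.24 ± 0.10 (SE), with edgeR adjusted p values of 0.0624 and 0.0747. In both, the TGF-β1 libraries lay above the control libraries, and limma-voom called MIR4453HG higher (adjusted p 0.0477). On the opposite strand FBXW7 shares 20.3% of the exon bases of MIR4453HG. FBXW7 was at 33.8 CPM in control and 38.5 CPM after TGF-β1, with a log2 fold change of 0.19 ± 0.08 (SE), not called. MIR924HG and MIR9-3HG were both at 0.12, MIR762HG at -0.02, MIR29B2CHG at -0.28 and MIRLET7BHG at -0.36. In these 5 genes the groups overlapped. For MIR762HG the opposite gene BCL7C, which shares 16.2% of its exon bases, had a log2 fold change of 0.45 ± 0.15 (SE). In all, the groups did not overlap in 13 of the 20 tested miRNA hosts (10 higher and 3 lower) and in 9 of the 23 tested snoRNA hosts (8 higher and 1 lower), beside 55.6% of all genes tested.

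The count filter left out 55 miRNA hosts and 5 snoRNA hosts. No read was listed for 28 miRNA hosts and 1 snoRNA host. A count of 0 in a library allows a level of up to 0.115 to 0.143 CPM (3 counts, counting error only). MIR600HG had no read, but all its exon bases lie in exons of STRBP on the same strand. STRBP was at 63.7 CPM in control and 56.5 CPM after TGF-β1. How shared reads were counted is not given, so the limit may not hold for MIR600HG. Another 31 members held 1 to 46 reads over the 6 libraries. Those with over 20 reads were MIR3681HG, MIR378D2HG, MIR181A1HG, MIR205HG, MIR137HG, MIR497HG, MIRLET7A1HG, MIR3677HG, MIR1-1HG, MIR583HG, MIR133A1HG and SNHG28. MIR1-1HG had 9, 8 and 6 reads in control and 2, 3 and 0 after TGF-β1. MIR181A1HG, which encodes the same mature miR-181a and miR-181b as MIR181A2HG, had 5, 1 and 6 reads in control and 10, 11 and 6 after TGF-β1. The exact two-sided permutation test over libraries gave p = 0.1 for both, the smallest value that 3 libraries against 3 allow. It gave the same p for MIR3681HG (32 reads in control and 14 after TGF-β1), MIR378D2HG (30 and 16) and MIR137HG (24 and 10). MIR570HG (0 and 11) also had this p. In a fit of every entry with a count, MIR1-1HG was called lower, at -2.13 ± 0.68 (SE) on the log2 scale, and so was MIR99AHG, with 2, 2 and 3 reads in control and none after TGF-β1. MIR570HG was called higher in that fit, at 4.95 ± 1.596 (SE), with 0 reads in each control library and 1, 1 and 9 after TGF-β1. MIR181A1HG was not called in it (1.13 ± 0.54, SE).

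Some of these members were low only on the primary chromosome. For 6 member names the files also list entries on alternate contigs, where the reference repeats a stretch of a chromosome in another version. MIR210HG, host of the hypoxia-responsive miR-210, had 0 reads on its primary entry and 658 reads on its copy, namely 123, 119 and 142 reads in control and 103, 88 and 83 after TGF-β1. The copy had a log2 fold change of -0.50 ± 0.13 (SE, with an adjusted p of 0.0107 by edgeR). The copy of MIR22HG, host of miR-22, had 8, 8 and 11 reads in control and 26, 24 and 25 after TGF-β1, with a log2 fold change of 1.45 ± 0.27 (SE, with an adjusted p of 0.00136 by edgeR).

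MIR570HG and MIR23AHG held fewer reads. With all entries of a name summed, MIR570HG had a log2 fold change of 2.06 ± 0.41 (SE, with an adjusted p of 0.00173 by edgeR), with 9 of its 11 primary reads in TGF-β1 replicate 3. MIR23AHG had 3 primary and 43 alternate reads. SNHG32 had 1 primary and 326 alternate reads, and its summed log2 fold change of 0.77 ± 0.50 (SE) was not called. MIR124-1HG had no read on either. Which copy a read was given to is uncertain, so none of these values is counted among the members.

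**Figure D3:**
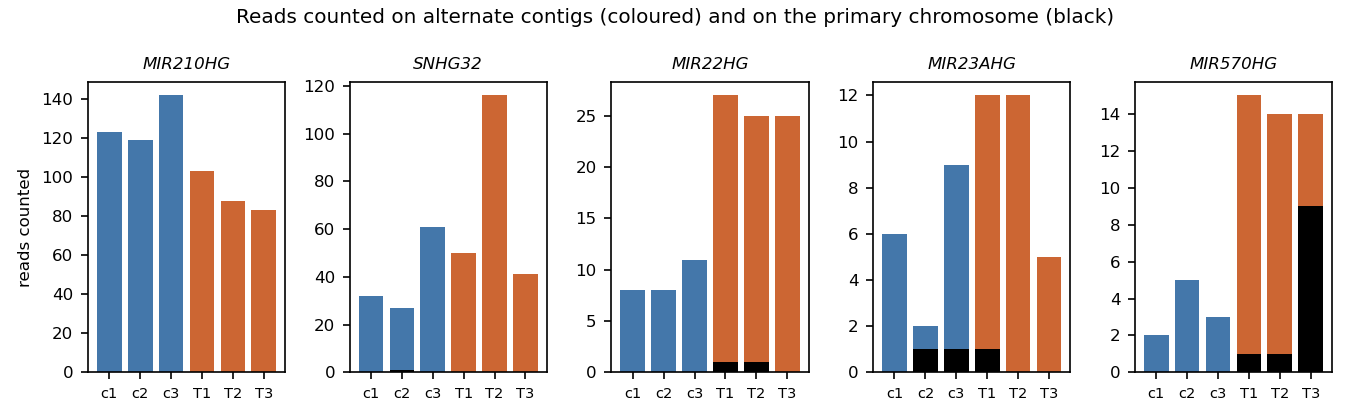
Reads counted per library (y axis, from 0, own scale per panel) for the 5 member names with reads on alternate contigs. Coloured bars are reads on alternate contigs (blue for control libraries c1 to c3, orange for TGF-β1 libraries T1 to T3) and black bars are reads on the primary chromosome. MIR210HG and SNHG32 have almost no black, and the orange bars of MIR22HG (24 to 26 reads) lie above the blue ones (8 to 11 reads).

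The 7 snoRNA host genes called higher rose by 0.29 to 0.47 on the log2 scale. SNHG3 (gene-SNHG3, chr1:28505943-28510892, plus strand), host of the H/ACA snoRNAs SNORA73A and SNORA73B, was at 54.9, 52.3 and 49.9 CPM in control and at 76.2, 68.1 and 73.3 CPM after TGF-β1. The change was 0.47 ± 0.06 on the log2 scale (SE, with an adjusted p of 0.000139 by edgeR). RCC1, which shares 6.44% of the exon bases of SNHG3 on the same strand, had a log2 fold change of -0.02 ± 0.05 (SE).

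SNHG15 (gene-SNHG15, chr7:44983023-44986696, minus strand), host of SNORA9, rose from 15.8 ± 1.58 to 20.6 ± 0.93 CPM (SD, n = 3), a log2 fold change of 0.38 ± 0.08 (SE, with an adjusted p of 0.00404 by edgeR). SNHG17 (gene-SNHG17, chr20:38420588-38435377, minus strand), host of SNORA71 family members, rose from 16.2 ± 1.53 to 20.8 ± 1.17 CPM (SD, n = 3), a log2 fold change of 0.36 ± 0.08 (SE, with an adjusted p of 0.00510 by edgeR). For both genes each TGF-β1 library lay above each control library.

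SNHG16 (gene-SNHG16, chr17:76557764-76565348, plus strand) carries the C/D snoRNAs SNORD1A, SNORD1B and SNORD1C in introns and ranked just below SNHG29 and SNHG6 by mean TPM. It was at 141, 136 and 148 TPM in control and at 176, 164 and 162 TPM after TGF-β1. Its log2 fold change of counts was 0.36 ± 0.06 (SE, with an adjusted p of 0.000801 by edgeR). SNHG1 (gene-SNHG1, chr11:62851978-62855885, minus strand), with 8 C/D snoRNAs, was at 51.8, 53.4 and 50.03 CPM in control and at 64.8, 65.2 and 60.3 CPM after TGF-β1. The log2 fold change of SNHG1 was 0.29 ± 0.06 (SE, with an adjusted p of 0.00200 by edgeR).

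SNHG14 (gene-SNHG14, chr15:24823608-25419462, plus strand) is a long imprinted transcript that overlaps SNRPN and carries the SNORD116 and SNORD115 arrays. It was at 51.8, 50.4 and 53.1 CPM in control and at 54.0, 67.9 and 69.6 CPM after TGF-β1, with TGF-β1 replicate 1 close to the control libraries. In the fit the log2 fold change was 0.30 ± 0.09 (SE, with an adjusted p of 0.0196 by edgeR). Its exons overlap those of other genes on the same strand. IPW, which shares 1.15% of the exon bases of SNHG14, was called higher, with a log2 fold change of 0.46 ± 0.08 (SE). SNRPN (9.73%), SNURF (7.23%) and PWARSN (2.30%) were not called, at 0.20 ± 0.27, 0.48 ± 0.36 and -0.72 ± 0.74 (SE). The call of SNHG14 was lost without control replicate 1 (0.30), 2 (0.28) or 3 (0.32), without TGF-β1 replicate 2 (0.25) or 3 (0.23), and with total counts only (0.19).

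SNHG10 (gene-SNHG10, chr14:95532912-95534872, minus strand), which holds SCARNA13 in an exon, was at 6.03, 6.05 and 5.45 CPM in control and at 8.95, 6.41 and 7.83 CPM after TGF-β1. This gave a log2 fold change of 0.40 ± 0.14 (SE, with an adjusted p of 0.0324 by edgeR). The call was lost without control replicate 1 (0.43), 2 (0.43) or 3 (0.36), without TGF-β1 replicate 1 (0.27) or 3 (0.39), with DESeq2 (0.40) and with total counts only (0.30).

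The 1 snoRNA host called lower was SNHG20 (gene-SNHG20, chr17:77088643-77094986, plus strand), which carries SCARNA16. It was at 5.63, 4.58 and 4.52 CPM in control and at 3.42, 3.27 and 4.15 CPM after TGF-β1, a log2 fold change of -0.44 ± 0.15 (SE, with an adjusted p of 0.0361 by edgeR). SEC14L1, which shares 22.5% of the exon bases of SNHG20 on the same strand, was far more abundant and also fell, from 204 to 135 CPM, at -0.59 ± 0.06 (SE) on the log2 scale. The part of SEC14L1 reads in the value of SNHG20 was not tested. The call was lost without control replicate 1 (-0.33) or 2 (-0.49), without TGF-β1 replicate 1 (-0.42) or 2 (-0.38), and with DESeq2 (-0.45).

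**Figure D4:**
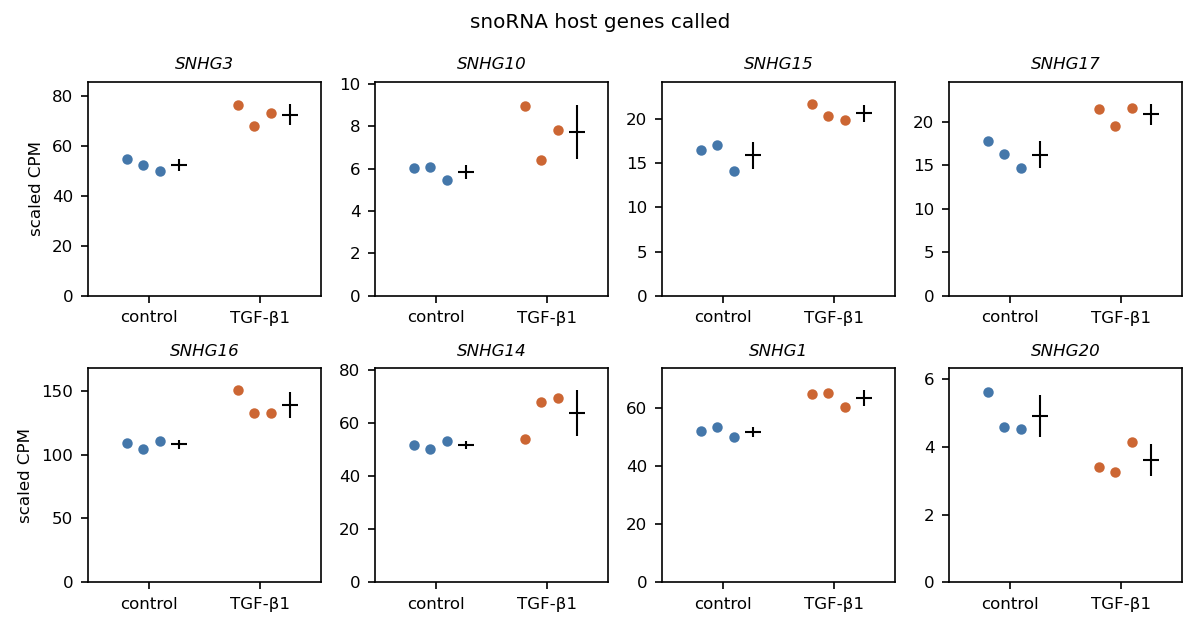
Level in each library (CPM after TMM scaling, y axis from 0) of the 8 snoRNA host genes that were called. Blue points are control libraries, orange points are TGF-β1 libraries, and the black bar is the mean with its SD (n = 3). The orange points lie above the blue ones in 7 panels and below them for SNHG20, and the groups come nearest in ratio for SNHG14 (53.1 and 54.0 CPM).

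The other 15 tested snoRNA hosts were not called. Among them were the most abundant members per length, SNHG29 and SNHG6. SNHG29 (gene-SNHG29, chr17:16438987-16470648, plus strand), host of SNORD49A, SNORD49B and SNORD65, was at 238, 240 and 242 TPM in control and at 230, 219 and 232 TPM after TGF-β1. Its log2 fold change of TMM-scaled counts was 0.04 ± 0.05 (SE), so its sign was opposite to that of the TPM difference. With total counts only it was -0.07. SNHG6, host of SNORD87, was at 217, 208 and 212 TPM in control and at 216, 182 and 187 TPM after TGF-β1. The log2 fold change of its TMM-scaled counts was -0.00048 ± 0.084 (SE). On the opposite strand, 59.8% of its exon bases overlap MCMDC2.

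SNHG26 (0.31 ± 0.15, SE) had TGF-β1 libraries above all control libraries but an edgeR adjusted p of 0.113. SNHG21 had a log2 fold change of 0.27, SNHG30 one of 0.15, SNHG18 one of 0.13 and SNHG4 one of 0.12. For SNHG21 the opposite gene FSD2, which shares 34.1% of its exon bases, was at 0.22 ± 0.18 (SE). SNHG12 was at 0.08, SNHG5 at 0.07 and SNHG7 at 0.04. These last 3 were at -0.03, -0.03 and -0.07 with total counts only. SNHG8 was at -0.08, SNHG11 at -0.12, SNHG19 at -0.18, SNHG9 at -0.24 and SNHG31 at -0.60 ± 0.35 (SE). SNHG31 had under 1.1 CPM in every library, and its groups overlapped. SNHG4 was called higher only without TGF-β1 replicate 1 (0.29, adjusted p 0.0298), and its exons overlap those of the abundant MATR3 on the same strand.

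Summed over all members, miRNA hosts held 210, 218 and 236 TPM in control and 237, 239 and 243 TPM after TGF-β1, a ratio of 1.08. The 3 members with the highest TPM made up 50.7% of this sum. The snoRNA hosts held 1423, 1387 and 1366 TPM in control and 1457, 1368 and 1402 TPM after TGF-β1, a ratio of 1.01 with overlapping groups. In TMM-scaled CPM, which is not per length, the ratios were 1.15 for miRNA hosts (184 to 210 in control and 222 to 223 after TGF-β1) and 1.14 for snoRNA hosts (662 to 693 and 740 to 800). The groups did not overlap in these CPM sums. These sums are descriptions with no test.

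The files also list the small RNAs as entries of their own, and these were compared with their hosts by position. A small RNA entry on the same strand lay inside 71 of the 75 miRNA hosts and 26 of the 28 snoRNA hosts. None of the 42 entries that lay wholly in a host exon had a read in any library. Any read over such an entry also overlaps the host exon on the same strand. The way reads shared by an entry and its host were counted is not given. The lack of reads therefore cannot show whether these small RNAs were present, and it is not comparable with the intronic entries. Of 192 intronic entries, 88 had a read, with 3803 reads in all. These reads come from poly(A) libraries of fragmented RNA and may include unspliced host, so they are not a measure of mature miRNA or snoRNA.

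Of the intronic entries, 20 passed the count filter. By edgeR, DESeq2 and limma-voom 0 of these were called, and 0 had an unadjusted p under 0.05. Entries under the filter were not tested, and in some of them the groups did not overlap, in either direction. For example, MIR181B1 in MIR181A1HG had 1, 1 and 1 reads in control and 8, 10 and 8 after TGF-β1. SNORD29 in SNHG1 had 9, 9 and 10 reads in control and 4, 6 and 4 after TGF-β1. In SNHG1 the snoRNA entries had log2 fold changes of -0.20 ± 0.17 for SNORD22, -0.23 ± 0.18 for SNORD31, -0.36 ± 0.24 for SNORD28 and -0.68 ± 0.36 for SNORD26 (SE), beside 0.29 ± 0.06 for the spliced host. SNORD22 had 52, 52 and 62 reads in control and 55, 49 and 42 after TGF-β1. In SNHG3 the entries had values of the same sign as the host, with 0.32 ± 0.24 for SNORA73A and 0.36 ± 0.22 for SNORA73B (SE). The difference between host and hosted entry was not tested.

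**Figure D5:**
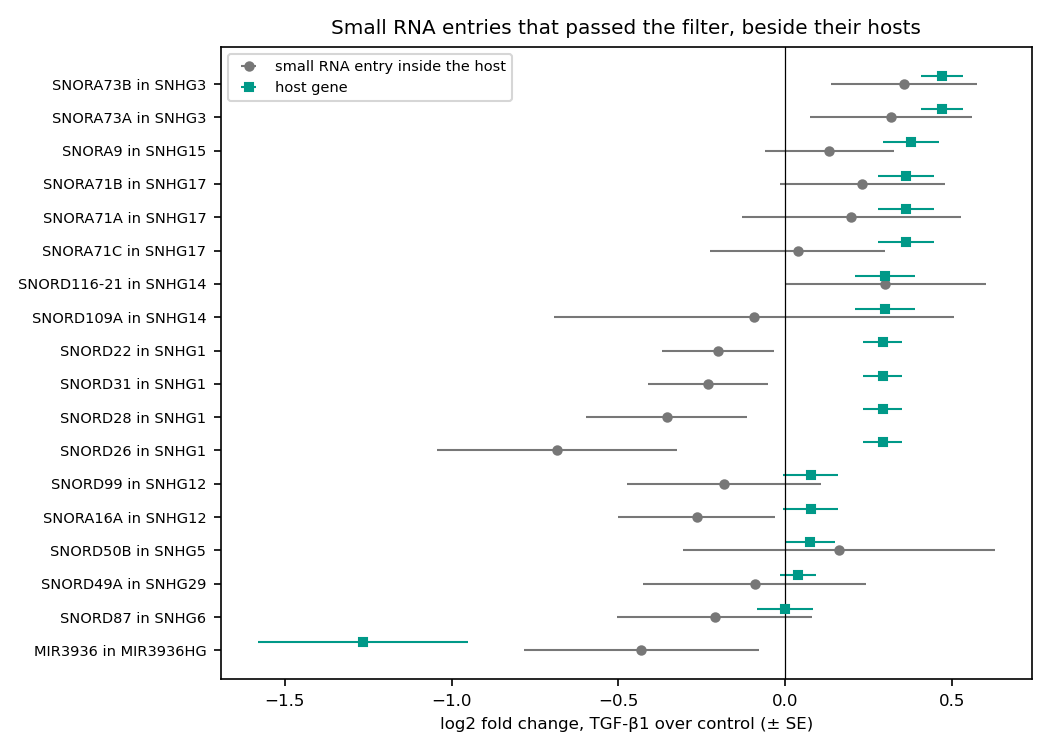
Log2 fold change (TGF-β1 over control, x axis) with its standard error for the 18 intronic small RNA entries that passed the count filter in a tested host (grey circles), beside that of the host gene (green squares). The 4 entries in SNHG1 lie left of 0 (-0.68 to -0.20) while their host lies at 0.29, and no grey point was called.

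Sequences of 4 of these snoRNAs are shown for the 2 kinds of guide. They were read from the GRCh38 genome of GENCODE v29 on the strand of the host. In the first pair, from SNHG14, the capitals mark box C (TGATGA) and box D (CTGA). In the second pair, from SNHG17, they mark the ACA box at the 3′ end.
SNORD109A (chr15:25041974-25042040): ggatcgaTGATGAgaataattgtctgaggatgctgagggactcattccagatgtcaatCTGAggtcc
SNORD116-21 (chr15:25088804-25088895): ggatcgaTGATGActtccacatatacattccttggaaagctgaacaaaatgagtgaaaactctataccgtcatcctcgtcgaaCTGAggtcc
SNORA71A (chr20:38427309-38427442): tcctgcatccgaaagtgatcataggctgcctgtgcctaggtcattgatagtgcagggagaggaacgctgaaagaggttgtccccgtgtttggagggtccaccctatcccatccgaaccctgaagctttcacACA
SNORA71C (chr20:38429670-38429803): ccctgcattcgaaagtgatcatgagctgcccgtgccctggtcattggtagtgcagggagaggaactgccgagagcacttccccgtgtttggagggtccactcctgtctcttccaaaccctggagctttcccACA

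SNORD109A had 12, 10 and 17 reads in control and 4, 9 and 23 after TGF-β1, with the largest standard error among the tested entries (0.60). SNORD116-21 had 13, 15 and 15 reads in control and 13, 20 and 20 after TGF-β1. SNORA71A had 9, 18 and 12 reads and then 13, 19 and 13, and SNORA71C had 17, 23 and 22 and then 18, 28 and 18. In all 4 the groups overlapped.

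Because TOP tracts are a known mark of SNHG genes, the annotated starts were read from the RefSeq promoter table (GRCh38.p14). A start was counted when the first base was C and at least 4 C or T bases followed. This form was found at the start of 6 of 24 snoRNA hosts (25%) and 3 of 56 miRNA hosts (5.36%), beside 5.14% of all 27305 genes of the table. The tested snoRNA hosts with it were SNHG4, SNHG5, SNHG12, SNHG18 and SNHG19, and 0 of these 5 were called or had an unadjusted p under 0.05 by edgeR, DESeq2 or limma-voom. Their log2 fold changes ran from -0.18 to 0.13. Among 15 tested snoRNA hosts without it, 6 were called higher and 1 lower, beside 44.3% of all genes called. SNHG15 (called higher), SNHG6 and SNHG9 were tested but not matched in the table. Allowing the form within 20 bases of the start gave 79.2%, 60.7% and 54.9%, so the count depended on the exact start. In the 3 examples shown here the tract is in capitals and the first capital is the annotated start.
SNHG5 (chr6:85678714-85678753, minus strand): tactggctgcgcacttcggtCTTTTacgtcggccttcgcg
SNHG19 (chr16:2155339-2155378, minus strand): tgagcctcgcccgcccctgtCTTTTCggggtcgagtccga
SNHG18 (chr5:9546180-9546219, plus strand): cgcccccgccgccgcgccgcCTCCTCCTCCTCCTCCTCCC

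Many other genes hold a small RNA within their span without being named for it. Of 759 tested genes with a miRNA entry on the same strand, 195 were called higher and 193 lower, which is 51.1%, and their median log2 fold change was 0.03. Of 226 with a snoRNA entry, 59 were higher and 31 lower (26.1% and 13.7%), with a median of 0.08. Of all genes tested, 44.3% were called (22.2% higher and 22.1% lower), with a median of 0.01. The largest changes among miRNA carriers with a mean of at least 5 CPM were those of JAG1 (holding MIR6870), a Notch ligand, at 4.37 ± 0.08, and CACHD1 (MIR4794) at 2.02 ± 0.07. On the lower side they were SH3TC2 (MIR584) at -2.96 ± 0.12 and GDF15 (MIR3189), a stress-induced cytokine, at -2.56 ± 0.11 (log2 fold change, SE). Among snoRNA carriers they were TNS1 (SNORA115) at 1.32 and FBLN2 (SNORA93) at 1.01, and ATP2B4 (SNORA77) at -1.18 and ZBED3 (SNORA47) at -1.15.

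The genes of proteins that process the small RNAs were read from fixed lists, and their calls stand beside the 44.3% of all genes called (22.2% higher and 22.1% lower). Of 20 tested miRNA processing genes, 2 were called higher and 1 lower, with a median log2 fold change of 0.02. The Microprocessor genes DROSHA (-0.10 ± 0.06, SE) and DGCR8 (0.03 ± 0.06, SE), the exporter XPO5 (-0.08 ± 0.05, SE), DICER1 (-0.11 ± 0.15, SE) and AGO2 (-0.19 ± 0.12, SE) were not called. DICER1 and AGO2 were lower in TGF-β1 replicate 1 (97.2 and 141 CPM) than in the other TGF-β1 libraries (139 to 143 CPM and 195 CPM).

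Of 18 tested snoRNP genes, 9 were called higher and 2 lower, beside 44.3% of all genes called, with a median of 0.20. All 4 genes of the H/ACA core were called higher, namely NHP2 (0.47 ± 0.07, SE), GAR1 (0.36 ± 0.09, SE), DKC1 (0.29 ± 0.06, SE), which encodes the pseudouridine synthase, and NOP10 (0.18 ± 0.07, SE). SHQ1, an H/ACA assembly factor, rose from 19.5 ± 0.26 to 29.6 ± 0.38 CPM (SD, n = 3), or by 0.60 ± 0.06 on the log2 scale (SE, with an adjusted p of 1.30e-05 by edgeR). Of the C/D core, NOP58 was called higher (0.22 ± 0.06, SE) and NOP56 was not called (0.09 ± 0.05, SE). FBL, the C/D methyltransferase, was at 4.30, 4.95 and 5.80 CPM in control and at 5.99, 57.6 and 8.12 CPM after TGF-β1. It was not called, at 2.25 ± 1.12 (SE), with TGF-β1 replicate 2 far above the other libraries. The name FBL has 2 entries, and the value is uncertain.

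Of 15 tested nonsense-mediated decay genes, 4 were called higher and 1 lower, beside the same 44.3%, with a median log2 fold change of 0.10. UPF1, the central helicase, had a log2 fold change of 0.31 ± 0.05 (SE, with an adjusted p of 0.000805 by edgeR). Of 4 tested noncoding snoRNA hosts with other names, DANCR rose from 27.6 ± 2.87 to 42.1 ± 5.01 CPM (SD, n = 3), or by 0.61 ± 0.10 on the log2 scale (SE). GAS5 (0.13 ± 0.06, SE) and ZFAS1 (0.10 ± 0.06, SE) were not called. EPB41L4A-AS1, at 0.45 ± 0.08 (SE), was the other call of this list.

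The kidney epithelial markers PAX8, KRT8, KRT18 and GGT1 were present in every library, while the proximal tubule markers LRP2, ANPEP and SLC34A1 were at or near 0. CUBN (0.485 CPM in control and 0.861 CPM after TGF-β1) and AQP1 (0.396 CPM and 1.72 CPM) were low and both called higher by edgeR. The summed level of the 10 epithelial markers was 979 to 1044 CPM in control and 1190 to 1377 CPM after TGF-β1. Of markers of other cells, PTPRC and CD3E were at or near 0, and the 4 leukocyte markers summed to 95.0 to 104 CPM in control and 61.5 to 85.3 CPM after TGF-β1, nearly all from CD68. The 3 endothelial markers summed to at most 1.595 CPM in control and had no read after TGF-β1, and the 4 fibroblast and pericyte markers to 58.8 to 68.4 CPM in control and 56.6 to 57.7 CPM after TGF-β1, mostly from LUM. LUM was called lower (-0.28 ± 0.07, SE), while PDGFRB was called higher, from 0.551 to 5.79 CPM (log2 fold change 3.38 ± 0.18, SE). Also called lower were CD14 (-1.72 ± 0.25, SE), CD68 (-0.44 ± 0.11, SE) and CDH5 (-7.39 ± 0.88, SE). CDH5 had 29, 16 and 17 reads in control and none after TGF-β1. Of 12 tested markers, 5 were called higher and 7 lower, beside 44.3% of all genes called. The part of other cells in the values of the host genes was not tested. In such bulk samples, less RNA per cell and fewer cells of a type cannot be told apart.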

How the data were processed

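Libraries were made from oligo(dT)-selected mRNA of HK-2 cells (3 control, 3 TGF-β1) and sequenced on an MGI platform. The submitters' processing notes name CASAVA, featureCounts 2.0.1, DESeq2 1.16.1 and the build hg38, and the aligner and strand setting are not given in the sources used here. The deposited tables, 1 per library, hold raw counts per gene, and TPM and FPKM values that the authors computed from them. Counts were tested, TPM was used for levels, and FPKM entered no result. Of 42095 entries, 598 had no gene name. Unnamed entries, with 0.396% to 0.464% of each library's counts, entered neither library sizes nor tests. Total counts were 21.9 to 26.9 M per library, which sets the precision at low levels.

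Counts were filtered with filterByExpr (minimum count 10), scaled with TMM and tested with the two-sided quasi-likelihood F test of edgeR 4.0.16 (R 4.3.3, robust), with Benjamini-Hochberg adjustment over all 14860 genes. The fit was tested on simulated data. The simulation changed a small share of genes, evenly in both directions and by more than any snoRNA host call. It therefore does not cover calls of that size or the scaling of these data. Small RNAs were assigned to hosts by position and strand. Permutation tests used scipy 1.17.1.

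Alternatives were DESeq2 1.42.0, limma-voom (limma 3.58.1), RLE size factors, total counts only, 2 other count filters, a replicate block, summed entries of a name, primary chromosomes only, and leaving out each library. The members and gene lists were chosen with earlier results of these data known. Every tested member is named, with full values for members called at a log2 fold change of at least 0.5, the 3 of each class with the highest TPM, and smaller calls. Members under the filter are named when they hold over 20 reads or have an alternate copy. Of the lists, 13 fixed genes are named with those called at 0.5 or more. H/ACA core genes and EPB41L4A-AS1 were named after their values were seen, as were MIR99AHG and MIR600HG. For other carriers, the 2 largest rises and falls of each kind are named.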

Additional observations from a re-analysis of the deposited data

How the results depend on the processing

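Of the 19 called members, 14 kept their direction and call in all alternatives in which they were tested, and the other 5 were MIR17HG, MIR222HG, SNHG10, SNHG14 and SNHG20. Leaving out 1 library at a time gave 5333 to 7196 calls over all genes (2646 to 3545 higher, 2687 to 3651 lower), 15 to 18 host genes called, 7 to 8 miRNA hosts higher and 2 to 3 lower, 5 to 7 snoRNA hosts higher and 0 to 1 lower, and class medians of 0.13 to 0.23 for miRNA hosts and 0.034 to 0.14 for snoRNA hosts. The snoRNA host median was lowest without TGF-β1 replicate 1. With total counts only, 2134 genes were called higher, and the class medians were 0.072 and 0.013. DESeq2 called 0 snoRNA hosts lower (1 at an unadjusted p under 0.05, and 1 called by edgeR and by limma-voom). The miRNA host median was -0.0078 with every entry that had a count (adding members of a few reads), 0.28 with a mean of at least 50 counts and 0.24 with entries of a name summed, which added MIR210HG, MIR22HG and MIR570HG as calls. Class sum ratios in CPM were 1.15 for miRNA hosts and 1.14 for snoRNA hosts. The replicate block called 6790 genes and 18 host genes (MIR222HG was lost, at -0.50). Deviations of same-numbered libraries correlated at 0.11, -0.01 and 0.08, and those of differently numbered ones at -0.15 to 0.09. With 3 libraries per group, these values cannot decide whether the labels' numbers pair the libraries. Only members that were not called changed sign. With total counts only these were SNHG12 (-0.030), SNHG5 (-0.032), SNHG7 (-0.070) and SNHG29 (-0.069). SNHG6 was at 0.0093 with every entry that had a count and at 0.0020 with entries of a name summed. With 1 library left out, SNHG6 ran from -0.12 to 0.060, SNHG7 from -0.014 to 0.088, SNHG8 from -0.17 to 0.064, SNHG29 from -0.0069 to 0.075, MIR762HG from -0.21 to 0.16, MIR3142HG from -0.076 to 0.066, MIRLET7BHG from -0.60 to 0.038 and MIR9-3HG from -0.063 to 0.24. The cause was not tested for any of these. Depth limits members of about 1 CPM or less, and intervals of 0 counts cover counting error only.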
